A study of Mus musculus with 20 samples.

Results

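The cerebral cortex of tau transgenic mice was compared between 10 and 3 months of age, using the 5 libraries named TG10M and the 5 named TG03M, which are 10 of the 20 libraries of the series. Both groups carry Tg(Prnp-MAPT*P301S)PS19Vle, a human tau transgene with the P301S mutation driven by the prion protein (Prnp) promoter, on a (C57BL/6 x C3H)F1 background. Wild-type mice of that background at 3 months (WT03M) and 10 months (WT10M), 5 libraries each, were sequenced alongside and are used here to set the change with age in the transgenic cortex beside the change with age alone. The measurement is FPKM, fragments per kilobase of transcript, scaled to the mapped fragments of the library, summed over the transcripts of a gene. Of 21949 genes in the messenger RNA table, 13722 had a mean of at least 0.5 FPKM over the 20 libraries and were tested. The labels give a replicate number to each library but do not say that each came from its own animal, so the p-values measure the spread between these libraries, which may be technical.

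PS19 mice are a model of tauopathy. Mutant tau in their neurons becomes hyperphosphorylated and forms filaments as the animals age, and neuron loss and gliosis follow. Microglia, the resident phagocytes of the brain, read damage through receptors such as TREM2, which signals through the adaptor TYROBP, and can move from a homeostatic program to a lysosomal and lipid-handling program described in several neurodegeneration models. Astrocytes react by building intermediate filaments of GFAP and by secreting complement and protease inhibitors. The complement cascade starts with C1q, whose 3 chains are made mainly by microglia in the brain, and goes on through C4 and C3, and it can tag synapses for removal.

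Depth, estimated from the steps between low FPKM values, was 24.0 to 30.1 M fragments (M, mega) in TG03M (median 26.2) and 22.5 to 30.0 M in TG10M (median 24.7). Log2 values correlated with Pearson's r of 0.982 to 0.990 within TG03M and 0.983 to 0.994 within TG10M. The libraries do not fall by group alone. On the first principal component (23.9% of the variance), TG10M replicates 1 and 5 and WT10M replicate 5 stand apart, with scores of 26.2 to 30.9 against -12.1 to 2.52 in the other 17 libraries. Hsp90aa1, which encodes a cytosolic chaperone, splits them another way. It was at 560 FPKM in TG03M replicate 1 and at 20.5, 17.3, 20.3 and 16.2 in replicates 2 to 5. In TG10M it was at 16.2 and 13.9 in replicates 1 and 5 and at 654, 596 and 657 in replicates 2, 3 and 4. In wild type it was at 16.6 FPKM in WT10M replicate 5 and at 532 to 687 in the other libraries. The labels name no batch. Since 4 of the 5 TG03M but 2 of the 5 TG10M libraries were low in Hsp90aa1, this split is partly confounded with age. It is also partly confounded with genotype and with the interaction of age and genotype. Differences are therefore also given inside each set. The low-Hsp90aa1 set is TG10M replicates 1 and 5 against TG03M replicates 2 to 5. Its 10-month libraries stand apart on the first principal component and its 3-month libraries do not, so age and that split cannot be told apart there. The high-Hsp90aa1 set is TG10M replicates 2 to 4 against TG03M replicate 1, where 3 months is 1 library.

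Markers of the labelled tissue were present. The summed level of 17 markers of excitatory neurons and cortical layers was 717 to 819 FPKM in TG03M and 610 to 714 in TG10M. In the same order, 12 thalamic markers summed to 70.5 to 91.8 and 68.6 to 80.6, and 14 hippocampal markers to 173 to 206 and 184 to 196. The 14 striatal markers summed to 252 to 580 FPKM in TG03M and 234 to 535 in TG10M, uneven within both groups. Markers of the choroid plexus, the tissue in the ventricles that makes cerebrospinal fluid, summed to 106 to 1310 FPKM in TG03M and 110 to 563 in TG10M, and so were uneven between libraries of the same group. Blood cell markers summed to 437 to 550 FPKM in TG03M and 303 to 2080 in TG10M. The part of these in the results was not tested.

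Between 3 and 10 months, 88 genes rose and 28 fell in the transgenic cortex. These are 0.641% and 0.204% of the genes tested, at a Benjamini-Hochberg adjusted p under 0.05 with limma, two-sided, on log2(FPKM + 0.5). The rises were the larger changes. Their median difference on that scale was 0.59 (0.21 to 2.42), and 45 of them passed 1.5-fold and 11 passed 2-fold. The falls had a median of -0.29 (-0.64 to -0.15), and 2 of the 28 passed 1.5-fold. Over all tested genes the median difference was 0.0009. TG10M lay wholly above TG03M for 77 of the 88 risen genes and wholly below it for 25 of the 28 fallen genes, where 1.84% and 1.57% of all tested genes separated in these directions.

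The sizes inside the 2 sets of libraries are given as a description, since the genes were called on these same libraries and, where the ages do not overlap, the sign in any subset is fixed. The median rise was 0.64 in the low-Hsp90aa1 set and 0.58 in the high-Hsp90aa1 set, and the median fall was -0.37 and -0.18. The size of the list, however, depends on single libraries. It was 116 genes with all libraries, 76, 75 and 67 with TG03M replicate 2, 3 or 5 left out, 56 and 62 with TG10M replicate 1 or 5 left out, and 288 when WT10M replicate 5, which enters through the shared estimate of the spread, was dropped. Without the 3 libraries that stand apart it was 73 genes, and 43 of the 88 rises and 5 of the 28 falls were among them. With a term for low Hsp90aa1, the split that is partly confounded with age, 931 genes were higher and 1388 lower, so the balance of directions turned, and with terms for both splits 6 were higher and 1 lower. Of the rises, 44 were called whichever single library was left out.

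**Figure D1:**
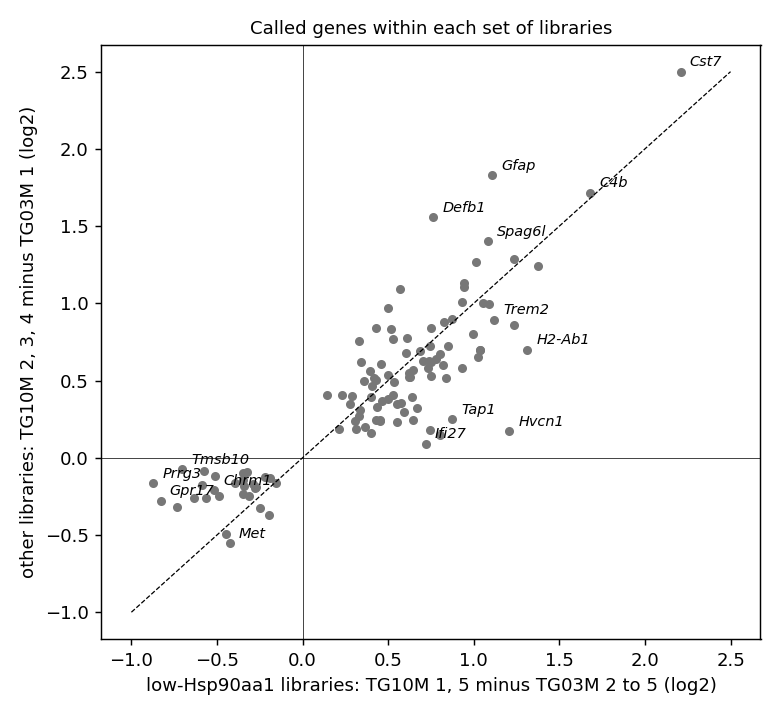
Difference between 10 and 3 months in transgenic cortex, on the log2(FPKM + 0.5) scale, for the 116 called genes (1 point each) in the low-Hsp90aa1 libraries (x axis) and in the other libraries (y axis), with the line of equality dashed. Their shared sign follows from the calls, and the plot shows how the sizes differ between the sets, such as 1.11 and 1.83 for Gfap and 0.87 and 0.25 for Tap1.

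Complement genes were among those with the largest rises. Of 13 tested genes for complement proteins and Fc receptors, 6 rose and 0 fell, all 13 differences were positive, and the median was 0.49 (0.19 in wild type). C4b, which encodes complement component 4 (chromosome 17, 34728380 to 34743882, minus strand, GRCm38), was at 3.78, 3.39, 3.86, 4.02 and 3.77 FPKM in TG03M replicates 1 to 5 and at 13.9, 12.1, 12.8, 16.1 and 12.5 in TG10M. The groups were far apart, and the 10-month libraries spread over more FPKM than the 3-month ones. The mean rose from 3.77 ± 0.233 to 13.5 ± 1.63 FPKM (SD, n = 5 each), a log2 difference of 1.71 (SE 0.09, limma adjusted p = 9.23e-10). It also rose in wild type, by 0.68 (limma adjusted p = 0.00592). The table holds no row for the copy C4a, which is not analysed here, so fragments of that copy may be counted in C4b. Without the libraries that stand apart, 3 of the 13 genes were called.

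C1qa, C1qb and C1qc, the 3 chains of C1q, rose together. C1qa was at 43.6, 45.2, 43.4, 55.2 and 46.3 FPKM in TG03M and at 108, 76.7, 82.4, 105 and 95.2 in TG10M, a log2 difference of 0.98 (SE 0.14, limma adjusted p = 0.000833). All 10-month libraries were above all 3-month libraries, and replicate 4 was the highest at 3 months. C1qb went from 21.4, 17.2, 23.1, 41.3 and 25.9 to 48.4, 51.2, 44.1, 62.3 and 55.8 FPKM (1.06, SE 0.21, limma adjusted p = 0.018). C1qc went from 21, 20.1, 24.4, 37.4 and 23.9 to 48.2, 46.8, 40.9, 52.9 and 51.7 FPKM (0.94, SE 0.18, limma adjusted p = 0.0157). The same TG03M library, replicate 4, was highest for all 3 chains, and in none did the groups overlap. The call of C1qb was lost without TG03M replicate 2 and without TG10M replicates 4 or 5 (highest limma adjusted p = 0.0539), and without the libraries that stand apart (0.0664). The other 2 genes of the list that rose were Fcer1g, the signalling chain of Fc receptors, and C3ar1, the receptor of the C3a fragment.

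In bulk cortex, more cells of a type and more RNA per cell cannot be told apart, which touches every result on glial genes here. Of 15 tested genes of the disease-associated microglial program, 7 rose and 0 fell (Cst7, Ctsz, Lyz2, Trem2, Tyrobp, Ctsd and Axl), with a median difference of 0.50 against 0.08 in wild type. The 20 measured genes of the list, tested or not, summed to 2240 to 2640 FPKM in TG03M and 2850 to 3150 in TG10M. Most of that sum was Apoe, with means of 2041 and 2375 FPKM, which was not called (limma adjusted p = 0.0779). The median difference of the 15 tested genes was 0.37 in the low-Hsp90aa1 set and 0.54 in the high-Hsp90aa1 set. Of the genes on the list, Itgax, Gpnmb, Ccl3, Ccl4 and Lilrb4a were below the minimum level for testing and Clec7a is not analysed here.

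Cst7, which encodes cystatin F, an inhibitor of lysosomal cysteine proteases, had the largest rise of all called genes (chromosome 2, 150570415 to 150578944, plus strand). In TG03M it was at 0.0864, 0.101, 0.0545, 0.0478 and 0 FPKM, close to the detection limit. In TG10M it was at 3.30, 3.61, 2.03, 3.01 and 1.20 FPKM. Every 10-month transgenic library was above the highest wild-type library, which was at 0.314 FPKM. The log2 difference was 2.42 (SE 0.18, limma adjusted p = 2.04e-07), a value that understates the change because 0.5 was added to such low levels.

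The TREM2 receptor complex rose in both its parts. Trem2, the lipid-sensing receptor, was at 7.59, 6.81, 7.08, 6.46 and 5.13 FPKM in TG03M and at 15.9, 12.1, 14.4, 17.5 and 12.9 in TG10M (1.08, SE 0.13, limma adjusted p = 0.000107). Tyrobp, its signalling adaptor, was at 24.9, 23.8, 23.1, 27.6 and 25.1 in TG03M and at 55.1, 43.5, 47.1, 62.6 and 49.2 in TG10M (1.02, SE 0.14, limma adjusted p = 0.000456). Both genes were highest in TG10M replicate 4, and neither overlapped between ages. Lyz2, lysozyme of myeloid cells, went from 6.09, 7.60, 6.57, 6.71 and 5.31 to 17.5, 14.1, 15.7, 17.1 and 14.6 FPKM (1.23, SE 0.14, limma adjusted p = 0.000107). Its neighbour and near copy Lyz1 was at 0.074 FPKM or less in all these libraries. Axl, a receptor for apoptotic cells, changed less: it was at 11.1 to 11.6 FPKM in TG03M and at 11.9 to 14.7 in TG10M (0.26, SE 0.06, limma adjusted p = 0.0295), and its call was lost without the libraries that stand apart (0.0978) and without any one of TG03M replicates 2 to 5 or TG10M replicates 1, 3, 4 and 5 (up to 0.0922).

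Another 4 risen genes described here are known from myeloid cells. Of these, Cyba was named for its interaction call and not for the size of its rise. Cd84, a receptor of the SLAM family, went from 0.696, 0.702, 0.656, 0.975 and 1.02 FPKM to 3.42, 1.86, 2.11, 3.14 and 2.53 (1.23, SE 0.16, limma adjusted p = 0.000382). Ly86, which encodes MD-1, a partner of the receptor RP105, went from 7.54, 8.10, 6.07, 9.51 and 7.76 to 21.4, 12.9, 13.9, 15.7 and 16.7 FPKM (0.99, SE 0.17, limma adjusted p = 0.00688). For both, TG10M replicate 1 was the highest library and the groups did not overlap. Cyba, the membrane subunit p22phox of the NADPH oxidase, went from 8.11, 7.37, 8.66, 7.69 and 7.93 to 15.4, 12.1, 16.6, 16.6 and 12.1 FPKM (0.82, SE 0.10, limma adjusted p = 0.000107). Bcl2a1b, an anti-apoptotic gene of the BCL2 family, went from 1.12, 0.524, 0.355, 0.503 and 1.05 to 1.80, 1.70, 2.14, 2.64 and 1.64 FPKM (1.07, SE 0.21, limma adjusted p = 0.0184). Its call was lost without TG03M replicates 2, 3 or 4 or TG10M replicate 4 (up to 0.0584) and without the libraries that stand apart (0.0522), and its near copies Bcl2a1a and Bcl2a1d, at up to 0.598 and 0.386 FPKM in TG10M, can share its fragments.

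Of 14 tested genes of homeostatic microglia, 4 rose, among them Aif1, Cx3cr1 and Gpr34, and 0 fell, 12 differences were positive, and the median was 0.22 (0.11 in wild type). Cx3cr1, the fractalkine receptor, moved over a narrow range, from 15 to 17.1 FPKM in TG03M to 18.2 to 19.7 in TG10M, without overlap (0.26, SE 0.06, limma adjusted p = 0.0319). Aif1, which encodes the microglial marker IBA1, was at 8.98, 8.20, 8.39, 6.72 and 4.70 in TG03M and at 13.4, 13.1, 12.7, 14.3 and 8.71 in TG10M (0.73, SE 0.15, limma adjusted p = 0.026). TG10M replicate 5 was within the range of the 3-month libraries. Gpr34, a lysophospholipid receptor, was at 7.23 to 9.89 FPKM in TG03M and 10.2 to 15.2 in TG10M (0.50, SE 0.11, limma adjusted p = 0.0366). P2ry12 and Tmem119, which define resting microglia, had differences of 0.16 and 0.15 that did not pass the test (limma adjusted p = 0.531 and 0.402).

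The summed level of the 14 homeostatic genes was 194 to 222 FPKM in TG03M and 248 to 299 in TG10M. The calls of Cx3cr1 and Gpr34 were lost without the libraries that stand apart (limma adjusted p = 0.162 and 0.178), and each was lost in 6 of the 20 fits that leave out 1 library: both without TG03M replicates 3 and 5 and TG10M replicates 1, 4 and 5, Cx3cr1 also without TG03M replicate 2 and Gpr34 without TG03M replicate 4. Aif1 was lost in 5 such fits, without TG03M replicates 4 or 5 or TG10M replicates 1, 2 or 4 (up to 0.0877).

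**Figure D2:**
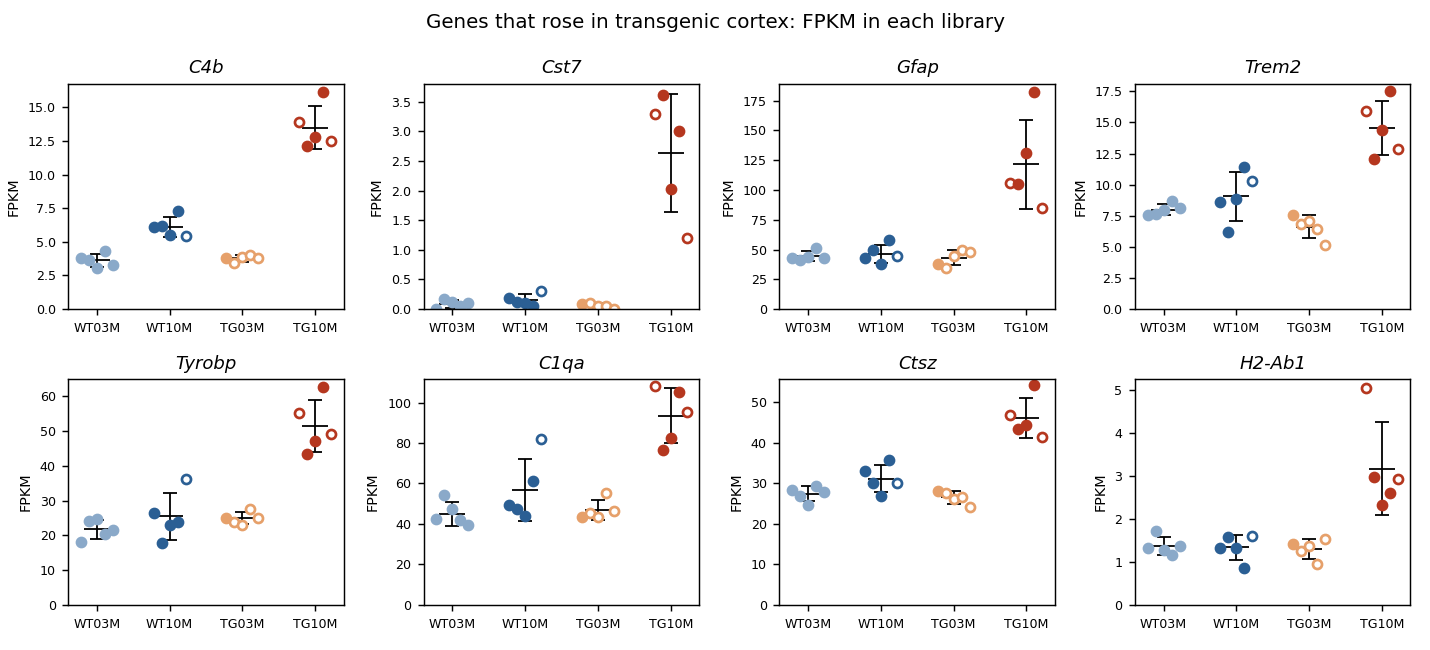
FPKM (linear axes from 0) of 8 genes that rose in transgenic cortex, 1 point per library, with the group mean and SD in black (n = 5 per group). Open points are libraries with Hsp90aa1 under 100 FPKM. In each panel all 5 TG10M points lie above all 5 TG03M points.

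Of 19 tested genes for lysosome and autophagy, 5 rose, among them Ctsz, Ctss, Ctsd and Ctsh, and 0 fell, 18 differences were positive, and the median was 0.21 against 0.01 in wild type. Without the libraries that stand apart, 5 of the 19 were called. Ctsz, cathepsin Z, was at 28.2, 27.7, 26.2, 26.5 and 24.1 FPKM in TG03M and at 46.8, 43.3, 44.4, 54.1 and 41.5 in TG10M (0.78, SE 0.08, limma adjusted p = 1.12e-05). Ctsd, cathepsin D, the main aspartic protease of lysosomes, was at 165, 161, 170, 188 and 163 in TG03M and at 245, 226, 219, 278 and 236 in TG10M (0.50, SE 0.07, limma adjusted p = 0.000883). In both genes the lowest 10-month library was well above the highest 3-month library, and replicate 4 was the highest at 10 months.

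Of 8 tested genes of MHC class II antigen presentation, 4 rose from mostly low levels and 0 fell. All 8 differences were positive, and the median was 0.78 against 0.16 in wild type. H2-Ab1, a class II beta chain, was at 1.42, 1.25, 1.37, 0.943 and 1.53 FPKM in TG03M and at 5.05, 2.98, 2.32, 2.60 and 2.94 in TG10M (1.0, SE 0.16, limma adjusted p = 0.00263). H2-Eb1, the beta chain of the second class II molecule, was at 1.60, 1.56, 1.80, 1.12 and 1.02 in TG03M and at 3.73, 2.97, 2.68, 2.32 and 2.43 in TG10M (0.80, SE 0.14, limma adjusted p = 0.00577). Cd74, the invariant chain that guides class II molecules, was at 3.48, 2.76, 3.83, 3.24 and 2.88 in TG03M and at 8.81, 6.72, 6.50, 7.23 and 4.03 in TG10M (0.91, SE 0.18, limma adjusted p = 0.0173). TG10M replicate 1 was the highest library for all 3, and none overlapped between ages. Ctss, cathepsin S, the protease that trims the invariant chain, was at 45.7, 49.8, 52.1, 59.1 and 45.6 in TG03M and at 116, 77.6, 92.5, 109 and 83.9 in TG10M (0.91, SE 0.12, limma adjusted p = 0.000539). The call of Cd74 was lost without TG03M replicates 2 or 5 or TG10M replicate 1 (up to 0.068).

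MHC class I and peptide loading genes rose in 4 of 11 cases, with 11 positive differences and a median of 0.43 (0.16 in wild type). H2-D1, a class I heavy chain, was at 21.9, 20.5, 19.5, 23.8 and 22.3 FPKM in TG03M and at 45.1, 31.1, 31.2, 32.4 and 33.2 in TG10M (0.66, SE 0.11, limma adjusted p = 0.00461). H2-K1, the other classical heavy chain measured, was at 13.5, 14, 12.3, 16.8 and 18.2 in TG03M and at 32.3, 22.5, 21.5, 21.7 and 22.3 in TG10M (0.66, SE 0.13, limma adjusted p = 0.0155). TG10M replicate 1 lay far above the other 4 in both, and those 4 were still above all 3-month libraries. Class I genes resemble each other in sequence, so the division of fragments between H2-D1 and H2-K1 is uncertain. Psmb8, a subunit of the immunoproteasome that makes peptides for class I, was at 2.32 to 3.35 FPKM in TG03M and 4.03 to 8.01 in TG10M (0.80, SE 0.16, limma adjusted p = 0.0156). Tap1, which carries those peptides into the endoplasmic reticulum, was at 0.838 to 1.33 in TG03M and 1.36 to 2.49 in TG10M (0.65, SE 0.12, limma adjusted p = 0.00956). Without the libraries that stand apart, 1 of the 11 genes was called, and H2-K1, Psmb8 and Tap1 were not (limma adjusted p = 0.0842, 0.0924 and 0.0741).

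Genes of the type I interferon response had a median of 0.46 (0.09 in wild type), with 15 of 16 differences positive, but 2 of the 16 passed the test. Ifi27 was at 35.6, 21.8, 27.1, 31.5 and 26.4 FPKM in TG03M and at 50.2, 42.8, 36.7, 35.0 and 38.6 in TG10M (0.51, SE 0.11, limma adjusted p = 0.0325). Lgals3bp, a secreted glycoprotein, was at 2.74, 3.62, 3.35, 4.49 and 2.48 in TG03M and at 5.80, 5.19, 3.93, 6.24 and 5.18 in TG10M (0.60, SE 0.14, limma adjusted p = 0.0445). Both overlapped between ages. Neither was called without the libraries that stand apart (limma adjusted p = 0.19 and 0.223), and leaving out single libraries ended the call of Ifi27 in 6 fits (TG03M replicates 2, 3 and 5, TG10M replicates 1, 2 and 5) and that of Lgals3bp in 15 of 20.

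The DNA just before the start of 2 of these genes is shown because each window holds a match to a classical element. H2-Eb1 holds one of class II promoters, and Ctss, a gene of the class II list, one of the interferon response. These 2 were picked as examples and do not stand for their lists. Capitals mark the match and the sequences run 5′ to 3′ on the strand of the gene, from RefSeq on GRCm38.p6.
H2-Eb1, chr17:34305755-34305862, plus strand, Y box: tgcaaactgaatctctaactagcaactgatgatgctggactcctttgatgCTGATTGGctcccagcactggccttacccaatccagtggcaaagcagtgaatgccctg
Ctss, chr3:95526715-95526785, plus strand, interferon-stimulated response element: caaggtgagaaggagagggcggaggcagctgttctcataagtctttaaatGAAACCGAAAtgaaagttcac
The Y box is the part of class II promoters that nuclear factor Y binds, and interferon-stimulated response elements bind IRF and STAT complexes. The match began 62 bases before the start of H2-Eb1 and 21 bases before that of Ctss. The search covered 3 motifs on both strands of the 250 bases before each start. The Y box, CTGATTGG, was in 4 of the 63 risen genes that had a promoter in the table (6.35%: H2-Eb1, H2-D1, Tap1 and Cyp27a1), in 2 of 19 fallen genes (10.5%) and in 6.28% of 10338 tested genes. The class II genes H2-Ab1 and Cd74 were not among these matches. The interferon-stimulated response element, GAAA, any 2 bases and GAAA again, was in 5 of 63 (7.94%: Ctss, Aif1, Ncf1, Wls and H2-T22), in 1 of 19 fallen genes (5.26%) and in 2.99% of tested genes. Ifi27 and Lgals3bp, the called genes of the interferon list, were not among these matches. Genes without a listed promoter could not match. The core of the PU.1 site, GAGGAAGT, was in 4 of 63 (6.35%: Bcl2a1b, C1qc, Renbp and Dtx3l), in 0 of 19 fallen genes and in 2.69%. All these counts rest on 5 genes or fewer. A match is a description of the letters, not of binding.

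Astrocyte genes gave a split picture. Of 13 tested genes of reactive astrocytes, 5 rose (Gfap, Ggta1, Serpina3n, Aspg and Cd14) and 0 fell, while the median was 0.11 (-0.03 in wild type). Their differences were positive for 10 and negative for 3, namely Lcn2 (-1.33), Hspb1 (-0.50) and S1pr3 (-0.06), none of them called. The reactive markers Vim (0.08) and Cd44 (0.04) barely changed. Of 14 general astrocyte genes, 0 rose and 0 fell, with a median of 0.08. Gfap, the intermediate filament of astrocytes (chromosome 11, 102887336 to 102900912, minus strand), was at 37.9, 34.9, 44.7, 49.5 and 47.7 FPKM in TG03M and at 106, 105, 131, 182 and 84.8 in TG10M. The groups were well separated, and the 10-month spread was wide. The mean went from 43.0 ± 6.30 to 122 ± 37.6 FPKM (SD, n = 5 each), a log2 difference of 1.46 (SE 0.16, limma adjusted p = 2.98e-05). Of Gfap, 2 transcripts were examined and both rose, ENSMUST00000067444 from 41.0 ± 6.14 to 115 ± 36.8 FPKM and ENSMUST00000077902 from 1.91 ± 0.544 to 7.17 ± 1.57, with log2 differences of 1.43 and 1.67 (limma adjusted p = 0.000308 and 0.00104).

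Serpina3n, a secreted serine protease inhibitor, was at 3.87, 4.16, 4.76, 5.32 and 5.12 FPKM in TG03M and at 8.08, 6.53, 9.42, 11.2 and 6.74 in TG10M (0.77, SE 0.14, limma adjusted p = 0.00778). Ggta1, a galactosyltransferase, was at 1.28 to 1.57 FPKM in TG03M and 2.21 to 2.87 in TG10M (0.64, SE 0.09, limma adjusted p = 0.00138). Aspg, an asparaginase, was at 0.736 to 0.910 in TG03M and 1.16 to 1.68 in TG10M (0.52, SE 0.10, limma adjusted p = 0.0157), and its call was lost without TG10M replicate 1 (0.0638). None of the 3 overlapped between ages. Gfap and Serpina3n had larger differences in the high-Hsp90aa1 set (1.83 and 1.09) than in the low-Hsp90aa1 set (1.11 and 0.57), where the 10-month side is TG10M replicates 1 and 5.

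A pair of further rises came from other groups. Trf, transferrin, the iron carrier made by oligodendrocytes, was the 1 of 16 myelin genes to rise. It was at 134, 128, 129, 122 and 133 FPKM in TG03M and at 178, 178, 159, 176 and 197 in TG10M (0.45, SE 0.08, limma adjusted p = 0.00956; 0.0865 without the libraries that stand apart), while the 16 genes had a median of -0.02. The gene listed as Spag6l, which encodes a protein of the central apparatus of motile cilia, was the 1 of 11 ciliary genes to rise. It was at 0.797, 0.753, 1.23, 0.528 and 0.786 in TG03M and at 2.07, 2.30, 3.06, 3.53 and 2.46 in TG10M (1.27, SE 0.13, limma adjusted p = 2.28e-05), without overlap, and the median of the 11 was -0.01. The table pairs this symbol with the identifier of a chromosome 2 gene that GENCODE M21 names Spag6. The close paralog on chromosome 16 was at 2.37 to 3.48 FPKM in TG03M and 3.00 to 3.76 in TG10M, and reads may be divided between them.

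The other called rises, chosen for naming after their values were seen, included the leukocyte and microglial genes Adgre1, Cd48, Cd86, Cd209a, Lag3, Ptprc, Tlr2 and Slc11a1, and Hvcn1, a proton channel of phagocytes. Genes for intracellular proteins among them were Lat2, Plek, Ptpn6, Ncf1, Irf5, Myo1f and Unc93b1. Tspo, the mitochondrial protein targeted by imaging ligands for gliosis, also rose. Il33, an alarmin cytokine, Cst3, cystatin C, and Pros1, protein S, are secreted products among them. Of these, Tspo, Cd209a and Defb1, a defensin, had differences of 0.56, 0.57 and 1.07 in wild type, beside 0.62, 0.91 and 1.05 in the transgenic cortex. The remaining rises were Hist1h4i, Tbxas1, Slc16a3, Abca8a, Slc15a3, Zc3hav1, 2810459M11Rik, Ass1, Renbp, Itgb5, Parp12, Anxa4, Trmt2b, Gatm, Fads6, Tbc1d31, Cyp27a1, Efemp1, Fxyd3, Lrig1, Dtx3l, Tspan12, Wls, Hrsp12, H2-T22, Vwa5a, Sat1 and Sfxn5, from 0.85 (Hist1h4i) down to 0.21 (Sfxn5).

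The 28 falls included genes of neurons and synapses. Chrm1, the muscarinic acetylcholine receptor M1 of cortical pyramidal neurons (chromosome 19, 8663789 to 8683587, plus strand), was at 30.9, 31.7, 31.9, 34.3 and 34.3 FPKM in TG03M and at 22.9, 27.9, 25.6, 26.4 and 23.1 in TG10M. All 10-month libraries were below all 3-month libraries. The mean went from 32.6 ± 1.59 to 25.2 ± 2.18 FPKM (SD, n = 5 each), a log2 difference of -0.37 (SE 0.06, limma adjusted p = 0.00688). Its call held when any single library was left out (limma adjusted p up to 0.0307), as did those of Ptprn, Arhgef2, Cacng7 and B230217C12Rik, and no other fall did so.

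Prrt2, a presynaptic protein that restrains vesicle fusion, was at 47.9, 47.9, 45.1, 47.6 and 52.9 FPKM in TG03M and at 32.6, 37.7, 40.5, 41.6 and 32.5 in TG10M (-0.39, SE 0.08, limma adjusted p = 0.0295). Pcsk1n, which encodes the neuroendocrine peptide precursor proSAAS, was at 95.5 to 105 in TG03M and 66.2 to 88.7 in TG10M (-0.31, SE 0.07, limma adjusted p = 0.0376). Neither overlapped, and in both TG10M replicates 1 and 5 were the lowest libraries. Met, a receptor tyrosine kinase of cortical projection neurons, was at 3.47, 2.55, 3.13, 2.91 and 3.15 in TG03M and at 2.09, 2.87, 2.03, 1.81 and 2.02 in TG10M (-0.42, SE 0.09, limma adjusted p = 0.0323). Its replicate 2 at 10 months was above the lowest 3-month library. Met fell in wild type too, by 0.53 on the log2 scale (limma adjusted p = 0.0241).

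Of 14 tested genes of immature neurons and development, 2 fell and 0 rose, with a median of -0.07 (-0.08 in wild type). Sox4, a transcription factor of immature neurons, was at 7.34, 6.98, 7.35, 6.78 and 6.21 FPKM in TG03M and at 6.01, 5.30, 5.83, 5.53 and 5.77 in TG10M (-0.26, SE 0.06, limma adjusted p = 0.0377), and fell in wild type by 0.33 (0.0285). Tmsb10, an actin-binding thymosin of growing neurites, was at 285, 330, 340, 339 and 332 in TG03M and at 192, 264, 272, 278 and 221 in TG10M (-0.42, SE 0.10, limma adjusted p = 0.041). Neither overlapped, and for Tmsb10 the lowest 3-month library was replicate 1, the one high in Hsp90aa1. Gpr17, a receptor that marks newly formed oligodendrocytes, was at 7.57, 7.83, 9.26, 11.8 and 9.35 in TG03M and at 4.84, 5.90, 6.19, 6.41 and 5.40 in TG10M (-0.62, SE 0.14, limma adjusted p = 0.0332). It was the 1 of 15 precursor and new oligodendrocyte genes to fall, and its wild-type difference of -0.56 did not pass the test (limma adjusted p = 0.212).

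Pcdhgc5, a clustered protocadherin, was at 51.7, 53.5, 56.5, 53.1 and 49.7 FPKM in TG03M and at 33.5, 43.3, 43.3, 42.5 and 34.7 in TG10M (-0.43, SE 0.10, limma adjusted p = 0.0407). It was the 1 of 20 protocadherins to fall. Prrg3, a membrane protein with a Gla domain, had the largest fall, from 9.85, 13.9, 11.7, 13.6 and 17.2 to 7.87, 7.29, 9.43, 9.67 and 6.97 FPKM (-0.64, SE 0.14, limma adjusted p = 0.0295). The gap between the groups was narrow, 9.85 against 9.67. Cited2, a transcriptional co-regulator, was at 9.93 to 11.9 in TG03M and 6.24 to 9.48 in TG10M (-0.49, SE 0.11, limma adjusted p = 0.0425). Fbxo27, an F-box protein that recognises glycoproteins, was at 4.93 to 8.06 in TG03M and 4.21 to 5.03 in TG10M, with overlap (-0.45, SE 0.10, limma adjusted p = 0.0384). Fbxl16, another F-box protein, was at 144 to 161 in TG03M and 98.5 to 133 in TG10M (-0.38, SE 0.09, limma adjusted p = 0.0418). Lppr2, a phospholipid phosphatase-related protein, was at 26.9 to 33.0 in TG03M and 20.6 to 27.6 in TG10M, with overlap (-0.36, SE 0.08, limma adjusted p = 0.0414).

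Further falls, from -0.36 to -0.15, were B230217C12Rik, Arhgef2, Ptprn, Tfg, Nabp2, 4930402H24Rik, Mapkbp1, Dzip1, Cacng7, Dbn1, Anp32a, Phyhip, Abi2 and Hsbp1. Among them Dbn1 encodes drebrin, an actin-binding protein of dendritic spines, and Ptprn a protein of dense-core vesicles.

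The falls were less steady than the rises. All 12 falls given above with their levels, other than Chrm1, lost their call without TG10M replicate 1 and without TG10M replicate 5, and each lost it in 5 to 16 of the 20 fits that leave out 1 library. For most of them the low-Hsp90aa1 difference was the larger one in size, for example -0.70 against -0.07 for Tmsb10 and -0.87 against -0.16 for Prrg3, while Met, Sox4 and Fbxo27 went the other way, with -0.42 against -0.56 for Met and -0.20 against -0.37 for Sox4. WT10M replicate 5, the wild-type library that stands apart with TG10M replicates 1 and 5, was also the lowest of its group for Chrm1 (23.8 FPKM), Prrt2 (33.4), Tmsb10 (210) and Pcdhgc5 (32.5). Without those 3 libraries, Chrm1, Prrt2, Fbxl16 and Tmsb10 were still called (limma adjusted p = 0.0239, 0.0275, 0.0296 and 0.0354), and the other 9 were not (0.0729 to 0.239).

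**Figure D3:**
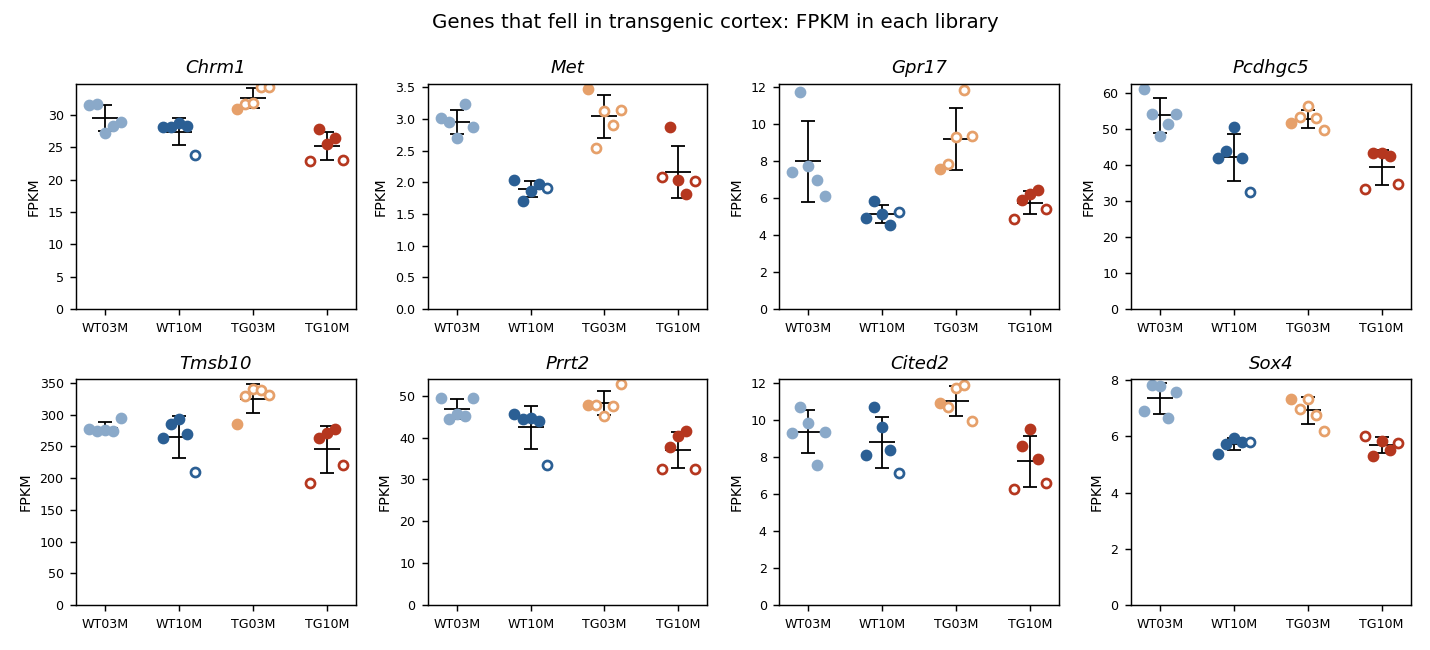
FPKM (linear axes from 0) of 8 genes that fell in transgenic cortex, 1 point per library, with the group mean and SD in black (n = 5 per group). Open points are libraries with Hsp90aa1 under 100 FPKM. In the Chrm1, Pcdhgc5, Tmsb10, Prrt2 and Cited2 panels the open points at 10 months are the lowest of their groups.

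Of 17 genes for postsynaptic receptors and scaffolds, 14 differences were negative and 0 passed the test, with a median of -0.22 (-0.01 in wild type). Of 17 presynaptic genes, 15 were negative and 0 passed, with a median of -0.12. The medians were -0.44 and -0.27 in the low-Hsp90aa1 set and -0.02 and -0.02 in the high-Hsp90aa1 set. Excitatory neuron and layer genes had a median of -0.11 with 1 call of 17 (Met), and inhibitory neuron genes one of -0.12 with 0 of 17. Immediate early genes, which report recent neuronal activity, had a median of -0.26 with 0 calls of 17, made up of -0.65 in one set and 0.58 in the other. Mitochondrially encoded genes, at -0.32 with 0 calls of 13, likewise gave -0.49 and 0.25. Endothelial (0.03), meningeal (0.07), mural (0.19) and extracellular matrix (0.01) lists had 0 calls.

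**Figure D4:**
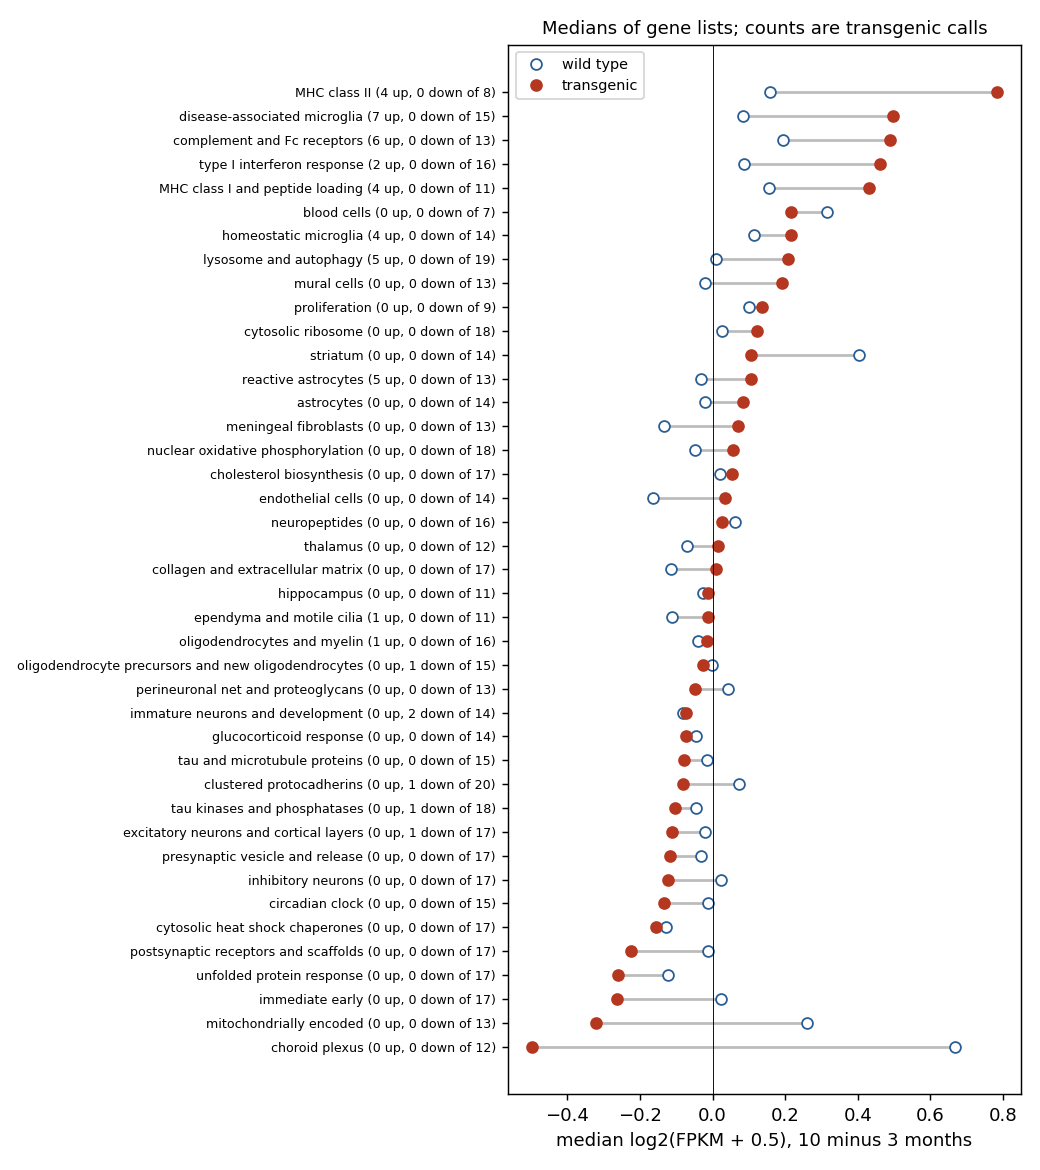
Median difference between 10 and 3 months, on the log2(FPKM + 0.5) scale, of each gene list with at least 5 tested members, in transgenic (filled) and wild-type (open) cortex. The counts in the labels are members called in transgenic cortex. MHC class II, disease-associated microglia, complement and interferon lists are at the top, with transgenic medians of 0.78, 0.50, 0.49 and 0.46, and choroid plexus is at the bottom with -0.50.

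The values listed for mouse Prnp, whose promoter drives the transgene, and for mouse Mapt were examined in the same libraries. Prnp was at 715, 743, 741, 695 and 812 FPKM in TG03M and at 841, 736, 766, 779 and 803 in TG10M, against 412 to 528 over the wild-type libraries. Transgenic and wild-type libraries did not overlap. The difference between ages was 0.08 (SE 0.06, limma adjusted p = 0.493). Mouse Mapt was at 129, 119, 138, 159 and 147 in TG03M and at 119, 138, 140, 135 and 144 in TG10M (-0.03, SE 0.07, limma adjusted p = 0.872), and the sign of that small difference turned in 5 of the alternative fits. The human transgene's own messenger RNA was not analysed here. Whether its fragments are counted in the Prnp or Mapt values was not tested. Hsp90aa1 did not pass the test (1.95, SE 1.23, limma adjusted p = 0.429) with all libraries. Without the 3 libraries that stand apart its difference was 4.09 and passed (limma adjusted p = 0.0288), since 4 of the 5 TG03M libraries and 0 of the 3 TG10M libraries left were low in it. Inside the sets its differences were -0.29 and 0.18.

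Ageing of the wild-type cortex gave far fewer calls, 7 higher (0.051% of tested genes) and 2 lower (0.0146%). Of the transgenic rises, 77 of 88 also had a positive difference in wild type (87.5%, where 48.5% of all tested genes did), with a median of 0.18 against 0.59. The genes were chosen for a large transgenic difference, so these 2 medians do not show that the genotypes differ, and the test of that is given last. Of the falls, 26 of 28 were also negative in wild type, with a median of -0.09 against -0.29. Calls in both genotypes were C4b and Abca8a among the rises and Met and Sox4 among the falls. Across the 13722 genes the 2 changes, which share no library, correlated with Pearson's r of 0.344 and Spearman's rho of 0.402, given as a description over genes that are not independent. The libraries that stand apart, TG10M replicates 1 and 5 and WT10M replicate 5, are all at 10 months, so both changes include such libraries. Their part in the shared signs and in these correlations was not tested.

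**Figure D5:**
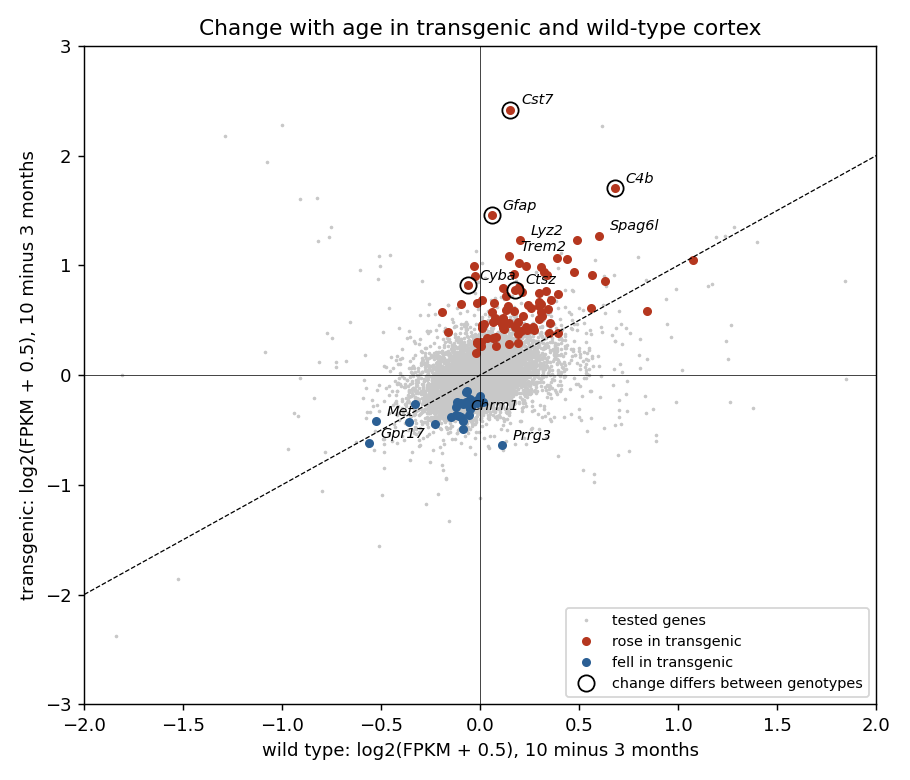
Difference between 10 and 3 months, on the log2(FPKM + 0.5) scale, in transgenic (y axis) against wild-type cortex (x axis) for all tested genes, apart from 7 outside the axes. Red points rose and blue points fell in transgenic cortex, rings mark genes whose change differed between genotypes, and the dashed line is equality. Of the 88 red points 77 lie right of 0, and the ringed genes are Cst7, C4b, Gfap, Cyba and Ctsz.

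The difference of the 2 changes was itself tested as the interaction of age and genotype. It was called for 5 genes (0.0364%), all with the larger rise in the transgenic cortex, and 691 genes had an unadjusted p under 0.05. Cst7 rose by 2.27 more in transgenic than in wild-type cortex (SE 0.26, limma adjusted p = 0.000419), and Gfap by 1.40 more (SE 0.22, limma adjusted p = 0.0122), its wild-type difference being 0.06. The values for C4b were 1.03 (SE 0.13, limma adjusted p = 0.00113) and for Cyba 0.88 (SE 0.14, limma adjusted p = 0.0122). C4b is the gene of the 5 that also rose in wild type, so its rise was present with age in both genotypes and larger in the transgenic one. Ctsz had 0.61 (SE 0.11, limma adjusted p = 0.0465), a call that was lost in 17 of the 20 fits leaving out 1 library, all except those without WT03M replicate 3, WT10M replicate 4 or TG10M replicate 5 (up to 0.141). The other 4 kept theirs in all 20. With terms for both splits, where the contrast rests on few libraries, 0 of the 5 stayed called (limma adjusted p = 0.0791 or more). The differences in that fit were 2.21 for Cst7, 1.63 for Gfap, 1.04 for C4b, 0.86 for Cyba and 0.53 for Ctsz. For the other 83 rises, including Trem2 (limma adjusted p = 0.108) and Lyz2 (0.108), a difference between the genotypes did not pass the test.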

How the data were processed

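Libraries from total RNA of frozen cerebral cortex were sequenced on an Illumina HiSeq system, per the labels. The deposited values are FPKM per transcript. The submitters' processing notes name the tools CASAVA, TopHat2, Cuffdiff and DESeq2 and the builds GRCm38 and mm10. What each tool did, and its version, is not given in the sources used. Transcripts of 1 gene identifier were summed, and 27 symbols turned into dates by a spreadsheet were restored by identifier.

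Genes with a mean of at least 0.5 FPKM over 20 libraries were fitted on log2(FPKM + 0.5) with limma 3.58.1 (R 4.3.3), with 1 mean for each of the 4 groups, 16 residual degrees of freedom, eBayes with a trend, two-sided tests and Benjamini-Hochberg adjustment over 13722 genes. No scaling was added, and fold changes on this scale understate those of low genes. Without counts, no count test was run, and the precision rests on the spread between 5 libraries a group. The 2 numbers of the split by Hsp90aa1 (100 FPKM) and by the first principal component (15) were set from the values. The code was tested on simulated data.

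The comparison, the gene lists and the naming rule were chosen with earlier results of these data known. The rule names the 12 largest rises and 12 largest falls, leaving out predicted models and called genes averaging under 1 FPKM. It adds the interaction calls, plus Prnp, Mapt, Hsp90aa1, Gfap, Cst7 and C4b. From a list described, it names up to 4 members with the lowest p-values, and here these were mostly called members. Genes added by role, and the promoter motifs, were chosen after their values were seen. Coordinates are from GENCODE M21 (GRCm38), where 21753 of 21949 identifiers matched. Alternatives were other pseudocounts, filters, scalings, weights and library sets, a replicate block, single transcripts and leaving out each library. Some genes are not reported here.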

Additional observations from a re-analysis of the deposited data

Results flagged for a closer look

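In 8 of 100 groups of 5 libraries examined, 1 library lay far from the other 4 of its group. For independent groups, chance alone would give about 1 in 20. These groups are not independent, since the genes share the same libraries, and Hsp90aa1 was included because it splits them. The 8 therefore cannot be read as an excess. TG10M replicate 1 was high for H2-D1 (45.1 FPKM, the others 31.1 to 33.2) and H2-K1 (32.3, the others 21.5 to 22.5). TG03M replicate 1 was high for Hsp90aa1 (560, the others 16.2 to 20.5) and low for Tmsb10 (285, the others 330 to 340). TG03M replicate 4 was high for C1qa (55.2, the others 43.4 to 46.3). TG10M replicate 5 was low for Aif1 (8.71, the others 12.7 to 14.3). Axl was low in TG03M replicate 3 (11.1, the others 11.5 to 11.6) and in TG10M replicate 2 (11.9, the others 14.3 to 14.7).

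The change with age differed between the genotypes by the interaction test for 5 genes. The transgenic change minus the wild-type change on the log2 scale was 2.269 for Cst7, 1.398 for Gfap, 1.026 for C4b, 0.8798 for Cyba and 0.606 for Ctsz.

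The table of lncRNAs assembled by the submitters was not part of the comparison. Its most abundant transcript was at 96107.4, 95626.5 and 49258.5 FPKM in TG10M replicates 2, 3 and 4, above the 1250.73 to 48627.7 FPKM of the wild-type libraries. It was at 1298.63 and 1571.34 FPKM in TG10M replicates 1 and 5, at 21156 in TG03M replicate 1 and at 2781.29 to 5675.66 in TG03M replicates 2 to 5. All libraries low in Hsp90aa1 were thus low in it too, and its part in the results was not tested.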

How the results depend on the processing

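Of 47 called genes described with their values, all 47 kept their direction in the 34 alternatives (33 for Cst7, which a mean FPKM of at least 1 leaves out), and 25 stayed called with any 1 library left out, but 4 (Cst7, C4b, Gfap and Spag6l) stayed called in every alternative. The transgenic count of 116 was 73 without the 3 libraries that stand apart (64 up, 9 down), 2319 with a term for low Hsp90aa1 (931 up, 1388 down), 52 from transgenic libraries alone, 48 for transcripts and, with terms for both splits (chosen after seeing the data), 7, where the contrast rests on few libraries. Leaving out 1 library gave 56 to 288. The wild-type count of 9 was 44 with array weights, 14 with a term for the libraries that stand apart, 1 from wild-type libraries alone and 1 to 10 with 1 library left out. The interaction count of 5 was 3 at a mean FPKM of at least 1, 10 with array weights, 1 with both terms and 4 to 6 with 1 library left out. The 1 call with both terms had a negative difference and was not among the 5. The cause was not tested. Mapt turned to 0.003639 without the libraries that stand apart, 0.02592 with a term for them and 0.1192 with both terms, and ranged from -0.07785 to 0.02569 with 1 library left out. Hsp90aa1 was -0.1137 with its own term, and passed at 4.089 without the libraries that stand apart.

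Same-numbered TG03M and TG10M libraries did not deviate together (r of -0.12 to 0.0768), so the numbers do not pair them. With the replicate block, 94 genes were called in the transgenic (80 up, 14 down), 5 in the wild-type and 6 in the interaction comparison. Estimated depth limits low genes such as Cst7 at 3 months.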
